A study of Mus musculus with 10 samples.

Results

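Expression of 10 chemokine ligand genes was examined in leukemic mouse spleens: Ccl2, Ccl3, Ccl4, Ccl5, Ccl6, Ccl9, Cxcl2, Cxcl9, Cxcl10 and Cxcl12. They were taken by gene symbol from the 20813 genes of the table, and each of the 10 had a row. The spleens carried T-cell acute lymphoblastic leukemia (T-ALL), a cancer of immature T cells, with a conditional Sirt1 allele. The leukemias had been given by vein to irradiated mice, and every sample is labelled as strain C57BL/6. One group of 5 is labelled Sirt1 deleted (title abbreviation TMX, replicates 7, 8, 10, 11 and 12) and the other group of 5 is labelled Control (VEH, replicates 2 to 6). The protocol names intraperitoneal tamoxifen at 3 mg per mouse in corn oil, or corn oil alone. The titles divide the samples exactly as the genotype labels do, so an action of tamoxifen on host cells and loss of Sirt1 cannot be told apart. The Cre driver, the number of primary leukemias, the age of the mice and whether each sample is 1 mouse are not given in the sources used here. P-values therefore measure the spread between these samples only.

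Chemokines are small secreted proteins that draw leukocytes along a gradient by binding receptors with a heptahelical fold. CC and CXC chemokines are told apart by the spacing of their first cysteines. In the spleen, Cxcl12 is made mainly by stromal cells and holds cells that bear Cxcr4, inflammatory CC chemokines come mostly from myeloid and lymphoid cells, and Cxcl9 and Cxcl10 are induced by interferons and recruit T and NK cells through Cxcr3.

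Sirt1 itself did not separate the groups: its normalized count was 1715 to 2097 in the samples labelled Sirt1-deleted and 1735 to 1909 in controls (limma adjusted p = 0.568). The excised part of the gene is not given in the labels, so its level over the whole gene does not check them, and every direction below refers to the labels. Normalized counts, which are counts scaled by the authors between samples, summed to 33.7 to 34.5 M per sample (M, mega). A value near 1, between 0.885 and 1.095 depending on the sample, was the most frequent low value, and it is taken as roughly the worth of 1 read.

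The promoters of 3 of the ligands are shown because they hold motifs of the interferon or nuclear factor kappa B (NF-kB) response, the inducing systems best known for this family. Sequences are from RefSeq (GRCm38.p6), were available for 7 of the 10 genes (Ccl3, Ccl6, Ccl9, Cxcl2, Cxcl9, Cxcl10 and Cxcl12), and are written 5′ to 3′ on the strand of the gene, up to its start. The Cxcl2 run stops at the GENCODE start of the gene, 28 bases short of the RefSeq start. Capitals mark every match to the interferon-stimulated response element GAAANNGAAA or to the kappa B motif GGGNNNTTCC, searched on both strands of the 250 bases before the RefSeq start.
Cxcl10, chr5:92348890-92349139, minus strand: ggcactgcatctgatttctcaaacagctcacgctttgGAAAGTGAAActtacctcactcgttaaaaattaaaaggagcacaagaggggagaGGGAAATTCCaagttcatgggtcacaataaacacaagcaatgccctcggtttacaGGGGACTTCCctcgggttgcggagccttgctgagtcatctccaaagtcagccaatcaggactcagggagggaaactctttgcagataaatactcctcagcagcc
Cxcl2, chr5:90903649-90903870, plus strand: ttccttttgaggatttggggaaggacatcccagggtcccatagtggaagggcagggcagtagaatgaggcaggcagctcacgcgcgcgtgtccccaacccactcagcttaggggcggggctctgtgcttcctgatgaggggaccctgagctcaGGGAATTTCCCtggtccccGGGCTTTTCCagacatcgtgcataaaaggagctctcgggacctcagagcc
Ccl9, chr11:83578637-83578886, minus strand: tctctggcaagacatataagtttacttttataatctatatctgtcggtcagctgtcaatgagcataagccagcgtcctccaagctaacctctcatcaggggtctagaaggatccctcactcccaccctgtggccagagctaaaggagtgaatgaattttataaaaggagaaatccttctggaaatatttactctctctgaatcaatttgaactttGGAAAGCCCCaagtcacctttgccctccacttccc
The Cxcl10 promoter held GAAAGTGAAA, beginning 213 bases before the start, and the kappa B matches GGGAAATTCC at 159 and GGGGACTTCC at 104 bases. The Cxcl2 promoter held GGGAATTTCC, its overlapping match on the other strand and GGGCTTTTCC, which begin 69, 68 and 50 bases before the end of the printed run. The Ccl9 promoter held 1 kappa B match at 35 bases, on the other strand. Of the 32851 promoter windows in the table, 2.98% held the interferon motif and 4.65% the kappa B motif. No match was found in the windows of Ccl3, Ccl6, Cxcl9 and Cxcl12. A match describes the letters only.

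The ligands lie mostly in known gene clusters. On chromosome 11 (GENCODE M21, GRCm38), Ccl5 (83525778 to 83530518), Ccl9 (83572919 to 83578636), Ccl6 (83587882 to 83593087), Ccl3 (83647844 to 83649355) and Ccl4 (83662584 to 83664683) are neighbours, and Ccl2 (82035571 to 82037453) lies 1488 kb before Ccl5. Ccl9 and Ccl6 are separated by 9.25 kb, and Ccl3 and Ccl4 by 13.2 kb. On chromosome 5, Cxcl9 (92321347 to 92328079) and Cxcl10 (92346638 to 92348889) are 18.6 kb apart with no protein-coding gene between them, and Cxcl2 (90903871 to 90905938) lies 1415 kb before Cxcl9. Cxcl12 is on chromosome 6 (117168535 to 117181367). Art3 overlaps Cxcl10 on the opposite strand, E230016K23Rik overlaps Ccl6 and Gm17268 overlaps Ccl2 in the same way. Whether the quantification used strand is not stated. Art3 measured 2.29 to 10.3 normalized counts across the 10 samples.

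Among the 10 ligands, 7 had a mean of at least 10 normalized counts over all samples and were tested with the rest of the table. Cxcl10, Ccl9, Ccl6 and Cxcl9 rose in the samples labelled Sirt1-deleted, and 0 of the 7 fell (limma; also 0 at an unadjusted p under 0.05). Over all 15276 tested genes, 36.1% differed, 16.8% as higher and 19.4% as lower (limma, Benjamini-Hochberg adjusted p under 0.05). Ccl3, Ccl4 and Ccl5 did not pass the test. Ccl2, Cxcl2 and Cxcl12 were below the minimum and are described by their values. Per kb of mean transcript length, Ccl5 had the highest level in controls, at 161 normalized counts per kb, followed by Ccl6 at 54.2, Ccl3 at 20.3, Ccl4 at 17.4, Cxcl9 at 14.6, Ccl9 at 12.1 and Cxcl10 at 9.29. Control samples of Ccl5 (94.1 to 232 per kb) lay above those of Ccl6 (40.8 to 69.9), and those of Ccl6 above those of Ccl3 (9.70 to 30.2), whereas Ccl3, Ccl4, Cxcl9, Ccl9 and Cxcl10 overlapped. In the samples labelled Sirt1-deleted, Cxcl10 came after Ccl5 (173) and Ccl6 (105) by this measure, at 43.9 per kb. Samples of Ccl5 (79.8 to 253 per kb) and Ccl6 (59.6 to 158) overlapped in that group. Those of Cxcl10 lay below both, and its samples (31.4 to 53.0 per kb) overlapped those of Ccl9 (17.2 to 55.5).

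**Figure D1:**
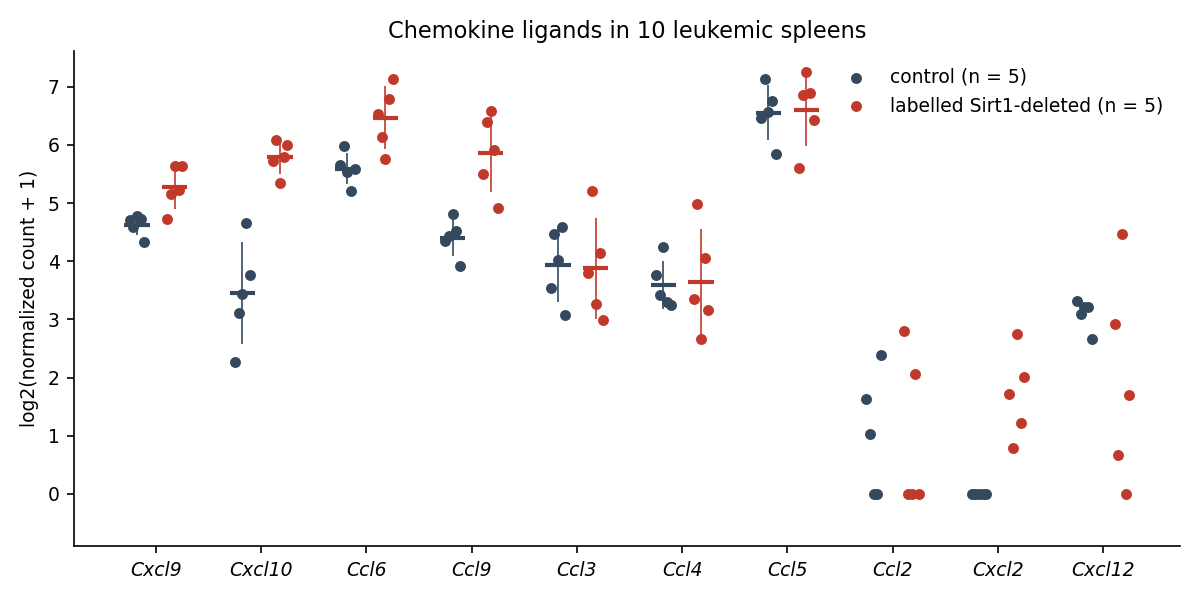
Each point is 1 spleen, with log2(normalized count + 1) on the vertical axis and the 10 ligands on the horizontal axis. Horizontal lines are means and vertical lines SD (n = 5), left out for ligands with a value of 0 in any sample. Cxcl10 and Ccl9 do not overlap between the groups. Ccl5 has the highest mean in both groups, although its samples overlap those of Ccl6 in each.

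Cxcl10, an interferon-induced ligand of Cxcr3, had the highest log2 difference of the 7 tested ligands. Its normalized counts were 3.83, 7.65, 9.87, 24.3 and 12.6 in control replicates 2 to 6, and 51.7, 66.6, 39.4, 54.6 and 63.2 in labelled Sirt1-deleted replicates 7, 8, 10, 11 and 12. Every labelled Sirt1-deleted sample was above every control, the nearest being replicate 10 and control replicate 5. The means were 55.1 ± 10.7 and 11.7 ± 7.77 (SD, n = 5 each), a ratio of 4.73. The log2 difference was 2.34 (SE 0.37, 95% interval 1.52 to 3.15, limma adjusted p = 0.00106; exact two-sided permutation p = 0.00794, the smallest possible with 5 against 5). Because 1 was added to each value before taking logarithms, log2 differences here fall short of the true change for genes with low values.

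Cxcl9, another interferon-induced Cxcr3 ligand, rose less. Controls lay at 25.1, 23.1, 26.4, 25.4 and 19.1 normalized counts (replicates 2 to 6), and labelled Sirt1-deleted samples at 25.6, 34.6, 48.9, 36.3 and 48.6 (replicates 7, 8, 10, 11 and 12). Replicate 7 fell within the control range and the other 4 were above it. The log2 difference was 0.65 (SE 0.22, 95% interval 0.17 to 1.13, limma adjusted p = 0.0370; exact permutation p = 0.0159). The call was near the threshold: with 1 sample left out in turn, 8 of 10 fits no longer passed (limma adjusted p above 0.05), all but those without labelled Sirt1-deleted replicate 7 or control replicate 4. Over the 10 fits, the log2 difference was 0.56 to 0.79 and the adjusted p at most 0.0918. Quantile normalization gave 0.38 (adjusted p = 0.202).

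The ratio of Cxcl10 to Cxcl9 was 0.153 to 0.956 in controls (median 0.374) and 0.806 to 2.02 in labelled Sirt1-deleted samples (median 1.50), where 4 of the 5 were above every control. The difference in log2 ratio was 1.68 (exact two-sided permutation p = 0.0159; p = 0.0476 after Benjamini-Hochberg adjustment over 3 pairs of neighbouring ligands, which were chosen after their values were seen). This call was not stable: with 1 sample left out in turn, 7 of 10 exact permutation tests no longer passed after that adjustment (adjusted p up to 0.0952), all but those without labelled Sirt1-deleted replicate 10 or control replicate 5 or 6. The difference in log2 ratio was 1.37 to 1.96 over these 10. Replicate 10 had the lowest Cxcl10 and the highest Cxcl9 of its group.

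Ccl9 and Ccl6 are CC chemokines of mouse myeloid cells that signal through Ccr1. Ccl9 measured 19.3, 20.7, 27.1, 22.0 and 14.2 normalized counts in control replicates 2 to 6, and 44.3, 82.9, 94.5, 59.1 and 29.3 in labelled Sirt1-deleted replicates 7, 8, 10, 11 and 12. The groups did not overlap, although replicate 12 was close to the highest control. The means were 62.0 ± 26.9 and 20.6 ± 4.69 (SD, n = 5 each), a ratio of 3.00, and the log2 difference was 1.45 (SE 0.31, 95% interval 0.78 to 2.12, limma adjusted p = 0.00420; exact permutation p = 0.00794). Among the 7 tested ligands, Ccl9 and Cxcl10 were the 2 whose labelled Sirt1-deleted samples all lay above all controls, as was true of 11.1% of all tested genes.

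Ccl6 measured 49.3, 61.9, 45.5, 36.1 and 47.1 normalized counts in control replicates 2 to 6, and 91.1, 69.7, 52.8, 110 and 140 in labelled Sirt1-deleted replicates 7, 8, 10, 11 and 12. Replicate 10 lay within the control range and the other 4 above it. The log2 difference was 0.88 (SE 0.25, 95% interval 0.34 to 1.41, limma adjusted p = 0.0163; exact permutation p = 0.0159). It was 0.65 after quantile normalization (adjusted p = 0.0559), and the exact rank-sum test gave an adjusted p of 0.0512. Within the labelled Sirt1-deleted group the extremes of these neighbouring genes were opposite: replicate 10 had the highest Ccl9 and the lowest Ccl6, and replicate 12 the lowest Ccl9 and the highest Ccl6. The ratio of Ccl9 to Ccl6 ranged from 0.209 to 1.79 in that group and from 0.301 to 0.609 in controls (difference in log2 ratio 0.58, exact permutation p = 0.341, adjusted over the 3 pairs p = 0.512).

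**Figure D2:**
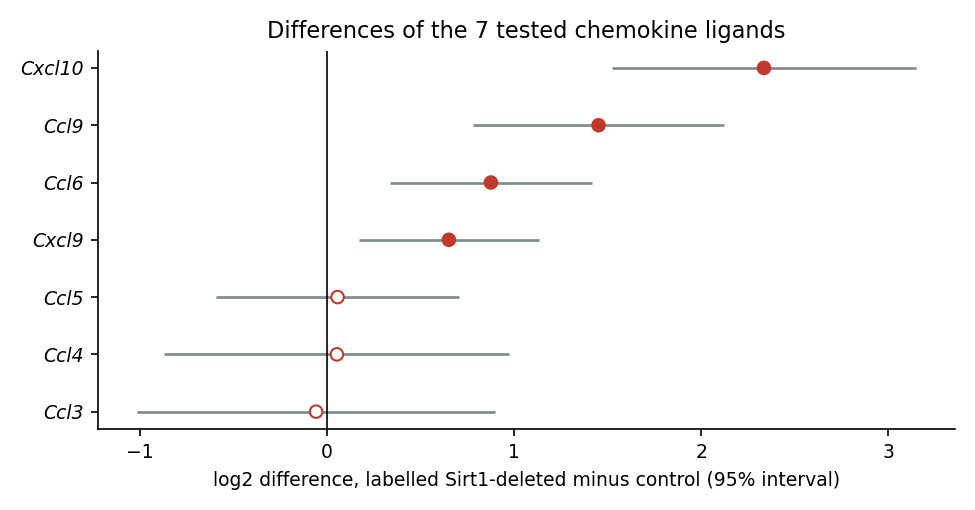
Points are log2 differences of the 7 tested ligands, labelled Sirt1-deleted minus control, with 95% intervals from limma on the horizontal axis, and filled points have an adjusted p under 0.05. Cxcl10, Ccl9, Ccl6 and Cxcl9 have intervals above 0, and the intervals of Ccl5, Ccl4 and Ccl3 span it.

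Ccl3, Ccl4 and Ccl5 are inflammatory CC chemokines, and Ccl3 and Ccl5 bind Ccr1. Ccl5, which is made by cytotoxic lymphocytes and by T-lineage cells, ranged from 47.9 to 152 normalized counts (median 114) in labelled Sirt1-deleted samples and from 56.4 to 139 (median 93.5) in controls. Its log2 difference was 0.06 (95% interval -0.59 to 0.71, limma adjusted p = 0.905). The 2 groups overlapped over nearly their whole ranges. The interval still includes a difference of the size seen for Cxcl9 (0.65), so a change of that size could have been missed.

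Ccl3 ranged from 6.95 to 36.1 normalized counts (median 12.9) in labelled Sirt1-deleted samples and from 7.43 to 23.1 (median 15.2) in controls, with a log2 difference of -0.06 (95% interval -1.01 to 0.90, limma adjusted p = 0.936). Ccl4 ranged from 5.35 to 30.8 (median 9.22) and from 8.50 to 17.9 (median 9.67), with a log2 difference of 0.05 (95% interval -0.87 to 0.97, limma adjusted p = 0.940). Replicate 8 was the highest sample for both genes. The intervals allow a change of up to about 1 on the log2 scale in either direction for Ccl3 and Ccl4, so differences of the size seen for Ccl6 and Cxcl9 were not detectable at these levels. The ratio of Ccl4 to Ccl3 was 0.624 to 1.14 in labelled Sirt1-deleted samples and 0.381 to 1.18 in controls (difference in log2 ratio 0.11, exact permutation p = 0.730).

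Cxcl2, a ligand of Cxcr2 that attracts neutrophils, was listed at 0 in each of the 5 controls. Labelled Sirt1-deleted replicates 7, 8, 10, 11 and 12 gave 2.30, 0.721, 5.75, 1.34 and 3.01 normalized counts, which is in the region of 1 to 6 reads. All 5 were above the controls. Its mean of 1.31 over all samples came only from the labelled Sirt1-deleted samples, so a test of this gene supports no call and none is given. No fold is given against a group listed at 0.

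Ccl2, which attracts monocytes through Ccr2, was near 0 in both groups. It measured 5.96, 0, 0, 3.17 and 0 normalized counts in labelled Sirt1-deleted replicates 7, 8, 10, 11 and 12, and 2.08, 1.04, 0, 0 and 4.20 in control replicates 2 to 6. The values overlapped (exact permutation p = 1), and at this level a difference was not detectable.

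Cxcl12, the stromal ligand of Cxcr4, had a narrow range in controls and a wide one in labelled Sirt1-deleted samples. Control replicates 2 to 6 gave 8.97, 7.52, 8.29, 8.29 and 5.36 normalized counts. Labelled Sirt1-deleted replicates 7, 8, 10, 11 and 12 gave 6.59, 0.580, 21.2, 0 and 2.23. Replicate 10 was the highest of all samples, and the other 4 were below 4 of the 5 controls. The log2 difference was -1.15 (exact permutation p = 0.190). Without replicate 10 it was -1.78 (exact permutation p = 0.0159), so the outcome depended on that sample. The summed level of 8 stromal markers ran from 1329 to 2782 normalized counts in labelled Sirt1-deleted samples, highest in replicate 10, and from 2474 to 3268 in controls. Of the 5 stromal markers tested, 2 were lower and 0 higher, while the median log2 difference was 0.23. The markers Pdgfrb (1459 ± 469 and 2170 ± 365, labelled Sirt1-deleted and control, limma adjusted p = 0.0215) and Col1a2 (362 ± 77.3 and 526 ± 101, limma adjusted p = 0.0203) were the most abundant and make up most of the sum (SD, n = 5). The other 3, Col1a1, Col3a1 and Lepr, had log2 differences of 0.23, 1.17 and 0.57 and did not pass (limma adjusted p = 0.438, 0.376 and 0.445). Pdgfra, Dcn and Lum were below the minimum, with means of 3.97, 1.65 and 0.753 normalized counts in controls. Their means in labelled Sirt1-deleted samples were 4.55, 7.40 and 2.56. The sum therefore describes mainly Pdgfrb and Col1a2, and which cells made these was not tested. In bulk RNA, fewer cells of a type and less RNA per cell cannot be told apart.

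Myeloid markers differed between the groups along with the ligands. The summed level of 15 macrophage and monocyte markers was 7276 to 13916 normalized counts in labelled Sirt1-deleted samples and 3492 to 3991 in controls, with 12 of 15 genes higher and 0 lower, and their highest genes were Lyz2 (3609 ± 1606 and 880 ± 114) and Vcam1 (1487 ± 220 and 835 ± 94.2; SD, n = 5). The summed level of 13 neutrophil markers was 28825 to 99600 against 9104 to 12566, with 12 of 13 higher and 0 lower. No marker of these lists was at 0 in every sample. Dendritic cell markers summed to 268 to 453 against 222 to 275, with 3 of 6 tested genes higher and 0 lower. The sums of NK and cytotoxic lymphocyte markers overlapped (12785 to 17791 and 10387 to 15626, 0 of 7 tested genes called). They were mostly Gzma (14982 ± 1944 in labelled Sirt1-deleted samples and 13290 ± 2128 in controls) and say little about the less abundant markers. Of the 7 tested genes, 6 had a log2 difference above 0. The T lineage markers, which mark the labelled tumour, were abundant in all samples (85923 to 96441), with 1 of 10 higher and 3 lower. The median log2 difference was 1.03 for macrophage, 2.26 for neutrophil and 0.63 for dendritic cell markers. It was 0.42 for NK and cytotoxic lymphocyte markers and -0.17 for T lineage markers, against -0.00014 for all tested genes.

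Set against the macrophage and monocyte markers, each of the 4 ligands that rose overlapped between the groups. Per 1000 normalized counts of those markers, Ccl6 was 5.01 to 17.3 (median 9.92) in labelled Sirt1-deleted samples and 10.3 to 15.9 (median 12.4) in controls. Ccl9 was 3.61 to 13.0 (median 5.96) and 3.55 to 7.41 (median 5.32). Cxcl9 was 2.49 to 6.73 (median 4.20) and 4.79 to 7.28 (median 6.71), with 3 of 5 labelled Sirt1-deleted samples below every control. Cxcl10 was 4.78 to 7.79 (median 5.63) and 1.02 to 6.96 (median 2.70), so that control replicate 5 alone reached the range of the labelled Sirt1-deleted samples. Against the neutrophil markers, which differed more, the order was another. Per 1000 normalized counts of these, Ccl6 was 0.700 to 3.14 in labelled Sirt1-deleted samples and 3.62 to 6.48 in controls, and Cxcl9 was 0.348 to 1.70 and 1.98 to 2.76. For both, all 5 labelled Sirt1-deleted samples were below every control. Ccl9 (0.657 to 3.28 and 1.47 to 2.35) and Cxcl10 (0.668 to 1.42 and 0.421 to 2.59) overlapped. The macrophage and monocyte markers did not rise alike. Their ratios of means ran from 1.31 for Adgre1 to 4.24 for Ly6c2, with Lyz2, the most abundant, at 4.10. Values per marker count therefore depend on which markers are summed. Whether these markers came from macrophages and monocytes alone, and which cells made each ligand, was not tested.

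**Figure D3:**
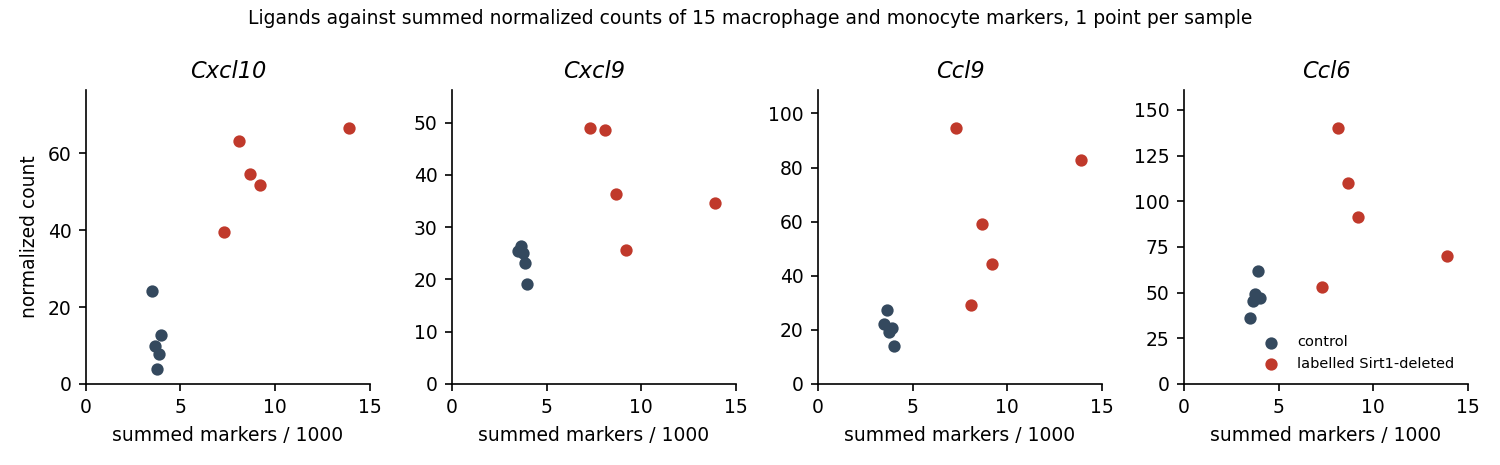
Each panel plots the normalized count of 1 ligand (vertical axis) against the summed normalized counts of 15 macrophage and monocyte markers divided by 1000 (horizontal axis), with 1 point per spleen. Controls cluster at low marker sums, and among labelled Sirt1-deleted samples the one with the highest marker sum, replicate 8, is highest for Cxcl10 but not for Cxcl9, Ccl9 or Ccl6.

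Receptors of the ligands were read in the same samples. Cxcr3, the receptor of Cxcl9 and Cxcl10 on activated lymphocytes, had 25.1 ± 7.46 normalized counts against 14.1 ± 3.62 in controls, a rise of 0.77 on the log2 scale (SE 0.27, limma adjusted p = 0.0424). That adjusted p was near the threshold, and labelled Sirt1-deleted replicate 7, at 17.7, lay below the highest control, at 18.7. Ccr1, which binds Ccl3, Ccl5, Ccl6 and Ccl9, rose from 24.2 ± 6.13 to 103 ± 63.0 (log2 change 1.81, limma adjusted p = 0.00518), with labelled Sirt1-deleted replicate 10 at 34.4 and the highest control at 34.5. Ccr2, the monocyte receptor of Ccl2, rose from 68.3 ± 13.5 to 143 ± 51.5 (log2 change 1.02, limma adjusted p = 0.00559). Cxcr2, the neutrophil receptor of Cxcl2, rose from 74.1 ± 12.6 to 262 ± 96.1 (log2 change 1.74, limma adjusted p = 4.81e-04). Errors are SD (n = 5 each).

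Cxcr4, the receptor of Cxcl12 and the most abundant of the listed receptors in normalized counts, ranged from 6744 to 7971 in labelled Sirt1-deleted samples and from 7594 to 8216 in controls (log2 change -0.10, limma adjusted p = 0.195). Ackr3, which scavenges Cxcl12, measured 5.59 to 17.2 and 8.47 to 16.8 (limma adjusted p = 0.819). For Cxcr4 and Ackr3 the groups overlapped.

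**Figure D4:**
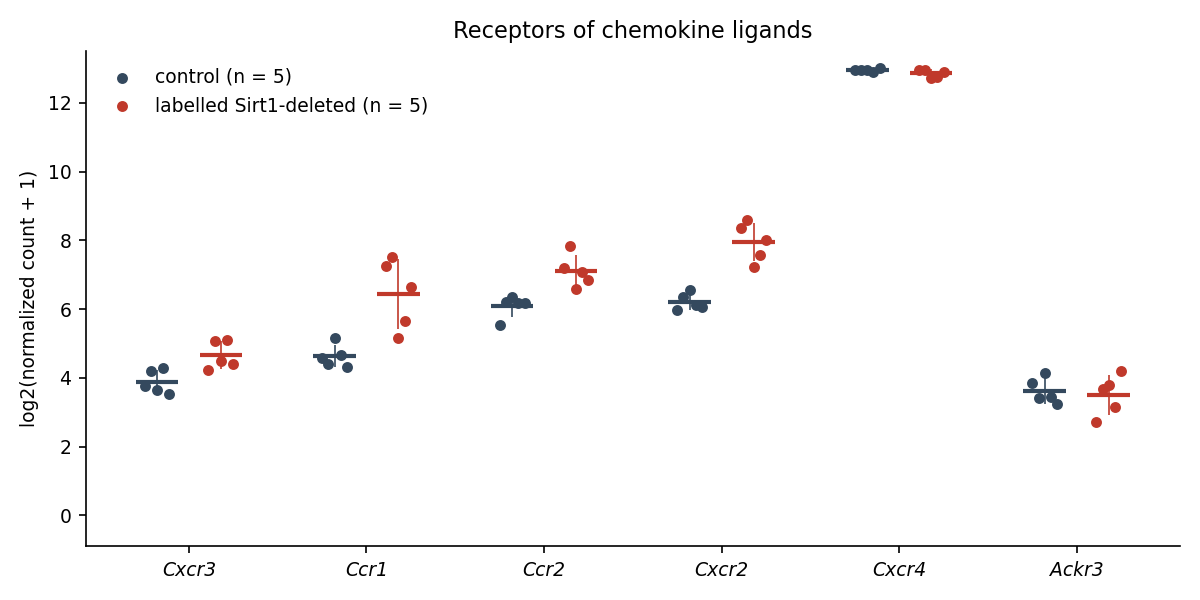
Each point is 1 spleen, with log2(normalized count + 1) of 6 receptors on the vertical axis, and lines give mean and SD (n = 5). Cxcr2 and Ccr2 do not overlap between the groups, and Cxcr4 and Ackr3 do.

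Over the 18 chemokine receptors listed, 15 were tested, 7 were higher and 1 was lower (median log2 difference 0.63). Ccr3, an eosinophil receptor, rose from 23.6 ± 5.69 to 79.5 ± 9.28 normalized counts (log2 change 1.74, limma adjusted p = 2.96e-04), and Ccr4 fell from 2178 ± 95.5 to 1443 ± 192 (log2 change -0.60, limma adjusted p = 5.85e-04). Of 28 other chemokine ligands listed, 16 were matched to a row and 7 were tested. Among these, Ccl25, a ligand of Ccr9, was the 1 that passed, rising from 255 ± 39.4 to 385 ± 73.3 (log2 change 0.59, limma adjusted p = 0.00936), and 0 fell (median log2 difference -0.52). Of 6 genes that remove or trim chemokines, 4 were tested: Dpp4, a protease that trims Cxcl9, Cxcl10 and Cxcl12, fell from 8546 ± 1130 to 6194 ± 443 (log2 change -0.46, limma adjusted p = 0.00196), and 0 rose.

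The genes of the inducing systems were read from 2 further lists. In the interferon signalling list, 6 of 13 tested genes were higher and 4 lower (median log2 difference 0.10). Irf7 rose from 410 ± 59.4 to 1813 ± 445 normalized counts and Irf9 from 1283 ± 164 to 2650 ± 448, and both encode transcription factors of the interferon response (limma adjusted p = 3.52e-05 and 2.96e-04). The receptor and kinase genes Ifngr1 (limma adjusted p = 3.90e-04), Jak2 (0.00163) and Jak1 (0.00303) fell, with log2 differences of -0.42, -0.45 and -0.35. Ifng itself was below the minimum, at a median of 8.17 normalized counts in labelled Sirt1-deleted samples and 3.75 in controls.

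In the axis from inflammatory cytokines to NF-kB, 2 of 13 tested genes were higher and 6 lower (median log2 difference -0.13). Il1b, which encodes interleukin 1 beta, rose from 10.3 ± 5.65 to 30.2 ± 9.49 normalized counts (log2 change 1.54, limma adjusted p = 0.00536), and Tlr4, the receptor of bacterial lipopolysaccharide, rose from 22.4 ± 8.48 to 39.2 ± 9.17 (limma adjusted p = 0.0343). The NF-kB subunit gene Nfkb1 fell from 6112 ± 204 to 4964 ± 177 (log2 change -0.30, limma adjusted p = 6.21e-04), as did Il1r1 (-0.79, limma adjusted p = 0.0140) and Relb (-0.32, limma adjusted p = 0.0241). Tnf did not pass the test, at 221 ± 57.5 and 210 ± 18.2 (limma adjusted p = 0.887).

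The genes whose log2 values followed a ligand most closely within the groups were sought among 10752 genes with a mean of at least 100 normalized counts. With group means removed, the highest Pearson correlations over the 10 samples were with Spag7 (0.94) and Ywhah (0.93) for Cxcl10, Tmem218 (0.90) and Smarcad1 (0.88) for Cxcl9, Spn (0.96) and Mrps11 (0.96) for Ccl9, and Ppp2r3d (0.93) and 1700010I14Rik (0.92) for Ccl6. For the ligands that did not pass the test they were with Dctn3 (0.98) and Plppr3 (0.90) for Ccl3, Lyn (0.94) and CAAA01147332.1 (0.93) for Ccl4, and Ugdh (0.94) and Slc5a9 (0.90) for Ccl5. No gene was named for more than 1 ligand. These are the highest of many correlations over few samples and are given as a description.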

How the data were processed

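Strand-specific RNA libraries were made from total RNA of red-cell-lysed spleen suspensions, per the labels' protocols. The authors deposited 1 table of gene counts after DESeq normalization, as the file name states, and its values are used as a normalized signal, not as raw counts. Besides that normalization, the submitters' processing notes name kallisto 0.44.0 and the mm10 build without roles, and the annotation is not given in the sources used here. The table has 0 columns outside the 10 samples. Low values were not whole multiples of 1 read for nearly all genes (68.3% to 74.3% of low values within 0.1 reads), so no count test was run. Approximate depth, each total divided by its most frequent low value, was 31.4 to 38.5 M reads (M, mega).

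Log2(value + 1) of the 15276 genes with a mean of at least 10 was fitted with limma 3.58.1 (R 4.3.3, intensity trend, group as the only term), with Benjamini-Hochberg adjustment over all of them and a threshold of 0.05. The script was tested on simulated data. Exact two-sided permutation tests used all 252 assignments of 5 and 5 samples. Lengths and positions came from GENCODE M21. Likeness of genes was the Pearson correlation of group-centred log2 values. Alternatives are given in the closing section.

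The ligands and the 15 pathway and marker lists were chosen with earlier results of these data known. Genes named are the 10 ligands, their receptors, up to 3 called genes in each direction from each pathway list, the 2 highest genes of each marker list and the 2 most alike genes of each tested ligand. Tnf and Ifng were named, and ratios of neighbouring ligands, values per marker count and Art3 were chosen, after values were seen. Some genes that this rule names are not reported here.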

Additional observations from a re-analysis of the deposited data

How the results depend on the processing

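No paired analysis was possible because no replicate number occurs in both groups. The number of ligands called higher was 4, and it was 1 with a minimum mean of 50, where 2 were tested, and 2 with quantile normalization, the exact rank-sum test or an adjusted p under 0.01. It was 3 to 4 over the 10 fits without 1 sample, and 0 ligands were called lower in all 21 alternatives. With a minimum mean of 1, Cxcl10, Ccl9 and Ccl6 were called and Cxcl9 was not (adjusted p = 0.0520). The count of 4 under that minimum includes Cxcl2, which reached it only through the labelled Sirt1-deleted samples and so supports no call. Calls over all genes numbered 5518, 3659 with the exact rank-sum test, 2850 at an adjusted p under 0.01 and 4201 to 6260 without 1 sample. Cxcl10 and Ccl9 kept direction and call in all 20 alternatives run for each, at log2 differences of 1.95 to 2.64 and 1.17 to 1.69. Ccl6 kept its direction in 21 and its call in 18. Cxcl9 kept its direction in 20 and its call in 6; leaving out replicates 10 and 11 together, chosen after seeing the data, gave 0.55 (adjusted p = 0.114). The low values of Ccl2, Cxcl2 and Cxcl12 limit what their comparison can show. The cause of these changes was not tested.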

Other observations

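Values of 5 further chemokine ligands are given here, chosen for naming after their values were seen. Cxcl11, another interferon-induced ligand of Cxcr3, measured 1.01 to 6.88 normalized counts in labelled Sirt1-deleted samples and 1.06 to 5.49 in controls (exact two-sided permutation p = 0.810). Cxcl3, a neutrophil attractant of the Cxcl2 family, measured 2.02 to 8.49 and 0 to 5.77 (exact two-sided permutation p = 0.349). Cxcl1, of the same family, measured 0 to 74.7 and 0 to 106 and did not pass the test (limma adjusted p = 0.712). The platelet chemokines Pf4 and Ppbp had medians of 12.1 and 15.8 normalized counts in labelled Sirt1-deleted samples against 24.4 and 55.2 in controls, and neither passed (limma adjusted p = 0.148 and 0.0607).

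Markers of endothelial, erythroid, B and megakaryocyte cells complete the cell-type lists. Endothelial markers summed to 2788 to 3757 normalized counts in labelled Sirt1-deleted samples and 3355 to 3483 in controls. That sum was mostly Pecam1 (3192 ± 497 and 3252 ± 70.8; SD, n = 5). It therefore says little about the less abundant markers, and 0 of 4 tested genes were called by limma. Cdh5, an endothelial cadherin that was below the mean of 10 needed for that test, measured 0.984 to 7.53 against 7.96 to 20.2. The other endothelial markers overlapped between the groups. Means in labelled Sirt1-deleted samples and controls were 7.01 and 6.72 for Tek, also below that minimum, and 14.5 and 14.8 for Kdr. They were 80.7 and 64.8 for Stab2, and 69.6 and 84.2 for Vwf. A fall of Cdh5 therefore does not describe the list. Erythroid markers varied widely within both groups (28365 to 137715 and 28340 to 111758), with 0 of 8 genes called. B cell markers summed to 444 to 894 and 353 to 682. Blnk, a B cell signalling adaptor, was the 1 of 6 that passed (log2 change 1.09, limma adjusted p = 0.00821). Blnk, Cdh5, Tek, Kdr and Stab2 were also named after their values were seen. The 5 megakaryocyte markers summed to 166 to 239 against 185 to 256, with 0 of 4 tested genes called.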
